A study of Mus musculus with 24 samples.

Results

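The genes described here form the myostatin, activin and follistatin axis: the ligands Mstn, Gdf11, Inhba and Inhbb, the type II receptors Acvr2a and Acvr2b, and the binding proteins Fst, Fstl3 and Fstl1. They were taken by symbol, 9 of the 25369 genes listed, and each matched 1 gene. Polyadenylated RNA of the left quadriceps was sequenced from mice aged 25 weeks, in 24 libraries of 3 per group. CMD mice carry the Lama2-CMD mutation of the laminin alpha 2 chain, which causes a congenital muscular dystrophy. They were compared with WT mice on the recombinant backgrounds 67 (labelled CMD-67, BXD-67 in the design) and 87 (CMD-87, BXD-87) and on D2 (DBA/2J) and B6 (C57BL/6J). The groups were thus 67 CMD, 87 CMD, D2 CMD and B6 CMD, and 67 WT, 87 WT, D2 WT and B6 WT. The WT mice of 67 and 87 have the strain labels CMD-67 and CMD-87 but are labelled WT and healthy. The labels do not name the Lama2 allele, and they do not say which animals were littermates. Libraries keep the numbers 1 to 24 of their labels.

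Myostatin, encoded by Mstn, is a secreted protein made mainly by skeletal muscle that limits muscle growth. It and the closely related Gdf11 bind type II activin receptors, which recruit type I receptors that phosphorylate SMAD2 and SMAD3. Activins, dimers of the Inhba or Inhbb chains, use the same receptors, and follistatin (Fst) and its relative Fstl3 bind these ligands and block them.

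The libraries held between 32292613 and 51715975 total exon reads. Lama2 itself was lower in CMD than in WT muscle in 87 (log2 fold change -0.89 ± 0.23, SE) and B6 (-1.004 ± 0.23), with edgeR adjusted p of 0.00939 and 0.00642, and did not pass in 67 (0.04) or D2 (-0.37). The call in 87 was lost without libraries 16 and 23 (0.0509) and with its 6 libraries fitted alone (0.0697). The summed CPM (counts scaled to library size) of 5 skeletal muscle markers was lower in every CMD library than in every WT library of its strain. It was 75107 to 80316 against 166283 to 174548 CPM in 67, and 82853 to 124110 against 140976 to 150374 CPM in 87. In D2 it was 67519 to 119904 against 120324 to 132137 CPM, and in B6 81723 to 102057 against 137957 to 177658 CPM. No marker was at 0. Of the 5 genes 1 rose and 3 fell in 67, 1 rose and 1 fell in 87, and 1 fell in B6. None passed in D2, where 2 were lowered at an unadjusted p under 0.05 and DESeq2 called 1. Y-linked reads went against the sex label in 4 libraries: D2 WT libraries 19 and 21, labelled male, had 1 and 0 of them, and D2 CMD libraries 22 and 24, labelled female, had 4927 and 4858. The main fit had no sex term for this reason, and sex as labelled and sex from Y-linked reads were alternatives. By Y-linked reads the males were library 7 of 67 WT, 13 of 87 WT and 17 and 18 of 87 CMD. The others were libraries 22 and 24 of D2 CMD, 1 of B6 WT, and 4 and 6 of B6 CMD. Sex was thus not balanced between the genotypes in any strain, and in D2 all males were CMD. The 4 mismatches join 2 libraries of each D2 genotype, and the sex check cannot show whether their genotype labels hold. Lama2 did not separate the D2 genotypes, at 23.3 to 29.04 CPM in CMD and 23.8 to 42.5 CPM in WT libraries, while the summed level of 3 regenerating fibre genes was 47.9 to 380.7 CPM in D2 CMD and 22.6 to 31.2 CPM in D2 WT libraries. Results in D2 rest on these libraries and are given for the members without them too, in a fit chosen after seeing the data. It leaves CMD library 23 and WT library 20 in D2, each assumed to vary like the libraries of the other groups. Library 16 of 87 CMD stood apart, with 1180 CPM of the metallothionein Mt1 against 18.4 to 91.5 CPM in the other 11 CMD libraries. It also had 3815 CPM of Trim63, a muscle ubiquitin ligase.

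Mstn fell in CMD muscle on all 4 backgrounds, to between 9.11 and 35.1 CPM. In 67 the 3 CMD libraries had 11.8, 14.7 and 14.6 CPM of Mstn, against 87.6, 108.4 and 89.3 CPM in the 3 WT libraries. In 87 they had 35.1, 20.4 and 9.11 CPM of Mstn in CMD muscle, against 66.1, 95.4 and 107.7 CPM in WT muscle. Every CMD library was below every WT library in both strains, and library 16 was the highest Mstn value of any CMD library. In D2 the Mstn values were 30.5, 14.1 and 12.7 CPM in CMD muscle, against 49.9, 73.4 and 41.1 CPM in WT muscle. In B6 they were 23.7, 11.4 and 12.9 CPM in CMD muscle, against 98.3, 63.7 and 78.3 CPM in WT muscle. Again no CMD library reached a WT library, and D2 had both the lowest WT library and the narrowest gap between the genotypes.

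The log2 fold change of Mstn was -2.80 ± 0.42 in 67 (adjusted p = 0.00025), -2.06 ± 0.41 in 87 (0.00177), -1.52 ± 0.40 in D2 (0.0125) and -2.32 ± 0.41 in B6 (0.00143). These and all adjusted p below come from edgeR's quasi-likelihood test with Benjamini-Hochberg adjustment over 14789 tested genes, and the threshold was 0.05. In the main fit they rest on the spread between libraries of the same group, estimated over all 24 libraries, and cover only these samples. Fewer cells of a type and less RNA per cell cannot be told apart in bulk samples. In linear terms Mstn was 6.95-fold lower in 67, 4.17-fold lower in 87, 2.87-fold lower in D2 and 5.01-fold lower in B6. Mstn was the 1 member past the threshold in every strain, as were 1.53% of all tested genes in the lowered direction. The differences between strains in this fall did not pass the threshold (F test, adjusted p = 0.392). The call in D2 was lost without library 20 (adjusted p = 0.0578), 23 (0.0528) or 24 (0.0589), and that in 87 when its 6 libraries were fitted alone (0.0659). Without the 4 D2 libraries of contradicted sex labels the change in D2 was -2.37 ± 0.67 (0.0514).

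**Figure D1:**
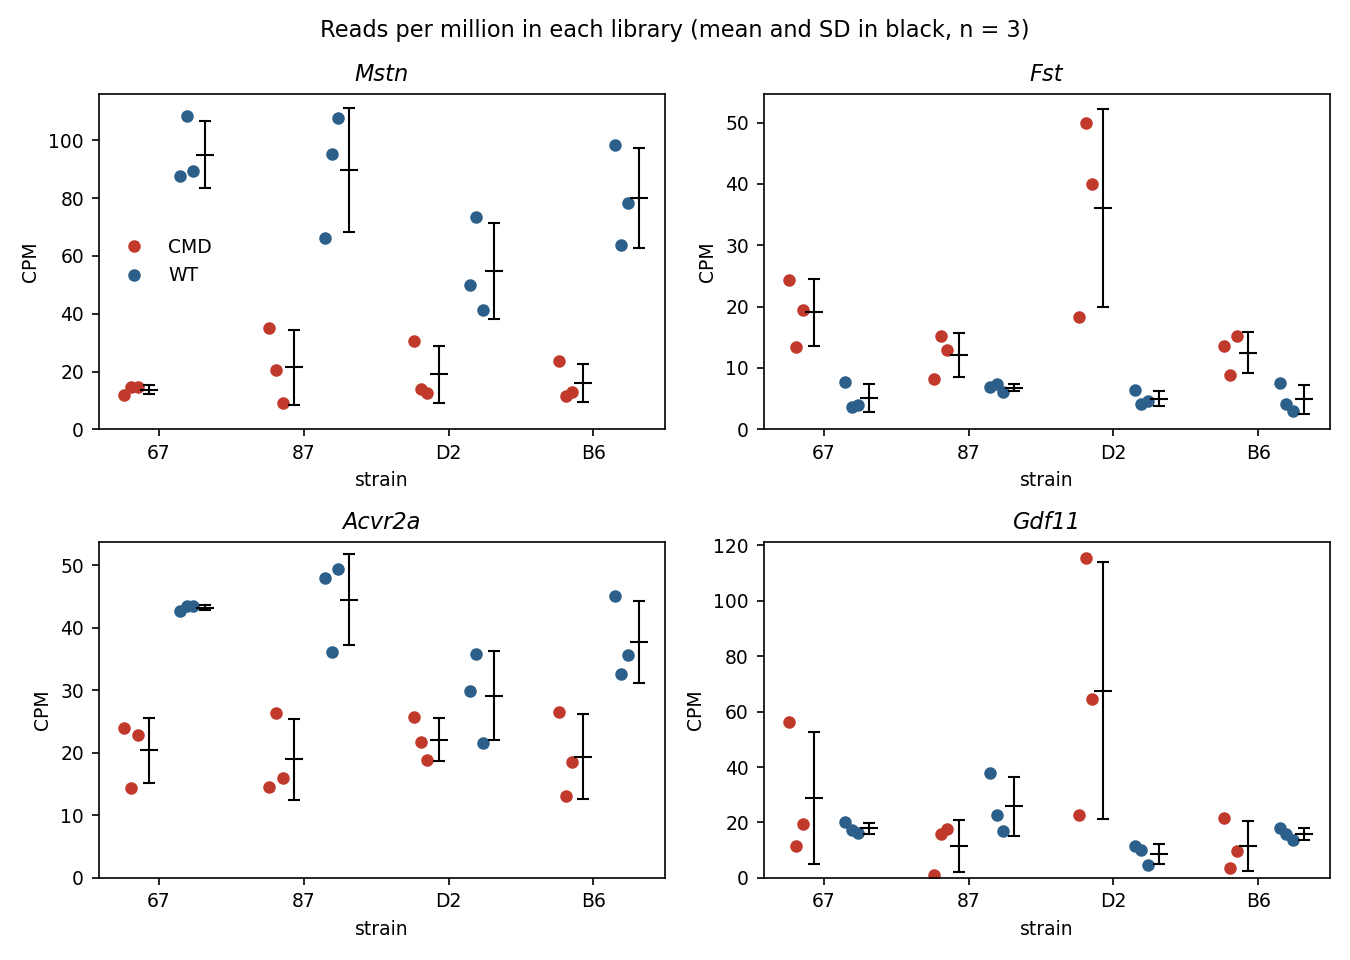
CPM of Mstn, Fst, Acvr2a and Gdf11 in each library (points), with CMD in red to the left of WT in blue for each strain; black marks show the mean and SD of 3 libraries. All CMD points of Mstn lie below all WT points of their strain, all CMD points of Fst lie above them, and Gdf11 separates upward in D2 with a wide spread.

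The promoter of Mstn is shown because this gene fell in all strains, and that of Acvr2a because this receptor fell in 3. RefSeq gives a promoter window for 8 of the 9 members, and those printed are the 250 bases before the start site in build GRCm38.p6, on the plus strand. Capitals mark matches to the E-box CANNTG, bound by myogenic bHLH factors, to CAGAC, the letters bound by SMADs, and to the TATA box sequence TATAAA. In the Acvr2a window the CAGAC match lies on the opposite strand, so that its reverse complement is in capitals. Both strands were searched, and no matches overlapped.
Mstn promoter, chr1:53061390-53061639: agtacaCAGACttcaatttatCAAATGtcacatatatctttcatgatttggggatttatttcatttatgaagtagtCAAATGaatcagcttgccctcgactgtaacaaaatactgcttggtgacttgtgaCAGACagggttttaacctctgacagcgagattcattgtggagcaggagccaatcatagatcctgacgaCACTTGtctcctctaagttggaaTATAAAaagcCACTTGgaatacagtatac
Acvr2a promoter, chr2:48813859-48814108: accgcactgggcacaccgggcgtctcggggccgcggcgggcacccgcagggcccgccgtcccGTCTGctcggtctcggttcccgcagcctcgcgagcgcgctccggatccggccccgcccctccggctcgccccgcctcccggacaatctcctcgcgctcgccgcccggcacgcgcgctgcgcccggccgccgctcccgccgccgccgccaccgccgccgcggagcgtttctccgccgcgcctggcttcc
The Mstn window held 4 E-boxes, 2 CAGAC matches and 1 TATAAA, which began 29 bases before the start, and its GC content was 38.4%. The Acvr2a window held 1 CAGAC match and neither of the other motifs, with a GC content of 82%. Over 27025 promoters the median GC content was 52%, and 66% held an E-box, 42.1% a CAGAC match and 13% the TATA letters. These matches describe letters and not bound sites.

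Gdf11 is the closest relative of Mstn, and the start of their mature coding regions is shown to let the similarity behind the read assignment be seen. The first 90 of 327 coding bases of each mature ligand are given, from GENCODE M21 transcripts (GRCm38, chromosome 1 for Mstn and 10 for Gdf11). Capitals mark the longest identical run at aligned positions.
Mstn mature coding start: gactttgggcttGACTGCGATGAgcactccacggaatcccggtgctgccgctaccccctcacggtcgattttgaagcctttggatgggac
Gdf11 mature coding start: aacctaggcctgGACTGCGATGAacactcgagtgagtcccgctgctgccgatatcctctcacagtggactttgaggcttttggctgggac
Of the encoded residues 98 of 109 (89.9%) were identical, but only 74.9% of the bases were, and the longest run of bases shared anywhere by the transcripts was 12. Reads were 58 bases long, and all reads of Mstn and Gdf11 were counted as unique in the deposited files.

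Gdf11 rose in D2 CMD muscle and did not pass the threshold elsewhere. In D2 it had 22.9, 115.5 and 64.5 CPM in CMD muscle, against 11.4, 9.89 and 4.58 CPM in WT muscle. Every D2 CMD library was above every D2 WT library, and the CMD values spanned a 68.6% coefficient of variation. The log2 fold change was 2.97 ± 0.81 (adjusted p = 0.0157). It was lost without library 20 (0.0526), 21 (0.0677) or 23 (0.0702). With both library 23 and library 16 left out it was 2.33 ± 0.64 (0.0182). Without the 4 libraries of contradicted sex labels it was 3.55 ± 1.44 (0.158).

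In 67 the Gdf11 values were 56.1, 11.3 and 19.4 CPM in CMD muscle, against 20.1, 17.4 and 16.2 CPM in WT muscle (log2 fold change 0.69 ± 0.76, adjusted p = 0.551). In 87 they were 0.891, 15.9 and 17.7 CPM in CMD muscle, against 37.7, 22.7 and 17.02 CPM in WT muscle (-1.16 ± 0.77, 0.306). In B6 they were 21.5, 3.50 and 9.52 CPM in CMD muscle, against 18, 15.8 and 13.6 CPM in WT muscle (-0.46 ± 0.76, 0.721). The genotypes overlapped in all 3 strains, and library 16 had the lowest Gdf11 value of the 24 libraries. The CMD effect on Gdf11 in D2 exceeded that in 87 by 4.14 ± 1.11 on the log2 scale (adjusted p = 0.0279), and by 2.94 without libraries 16 and 23 (0.0671). That call was also lost without library 13, 20, 21, 23 or 24, with adjusted p between 0.0501 and 0.0801, and without the 4 libraries of contradicted sex labels (4.71 ± 1.64, 0.17).

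The activin chains were scarce and did not pass the threshold in any strain. Inhba, the activin A chain, had 3 to 67 reads in a library. Its level in B6 was 1.23, 1.07 and 1.02 CPM in CMD muscle, against 0.638, 0.598 and 0.337 CPM in WT muscle (log2 fold change 1.08 ± 0.49, adjusted p = 0.131). These groups did not overlap, whereas they overlapped in 67, 87 and D2, where the log2 fold changes of Inhba were 0.74, -0.66 and -0.10. Inhbb, the activin B chain, ranged over 0.827 to 4.40 CPM in CMD libraries and 0.448 to 4.55 CPM in WT libraries. Its log2 fold changes were 0.06 in 67, 0.13 in 87, 0.76 in D2 and -0.04 in B6, with standard errors of 0.66 to 0.68, and its genotypes overlapped in every strain. Changes of the size of these errors, 0.47 to 0.52 for Inhba, were not detectable with 3 libraries per group. The larger change of Inhba in B6 (1.08 ± 0.49) did not pass either, so the limit lies above these errors. Inhbb varied widely between libraries of 1 group, with 191, 27 and 64 reads in 87 WT and 105, 15 and 38 reads in B6 WT muscle.

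Acvr2a, a receptor shared by myostatin and the activins, fell in 67, 87 and B6. In 67 it had 24.02, 14.4 and 22.8 CPM in CMD muscle, against 42.7, 43.5 and 43.4 CPM in WT muscle. In 87 it had 14.6, 26.3 and 15.9 CPM in CMD muscle, against 47.9, 36.1 and 49.4 CPM in WT muscle. All CMD libraries were below all WT libraries in both strains. The log2 fold change of Acvr2a was -1.08 ± 0.26 in 67 (adjusted p = 0.00739) and -1.23 ± 0.27 in 87 (0.00314).

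In B6 the values of Acvr2a were 26.5, 13.1 and 18.5 CPM in CMD muscle, against 45.1, 32.5 and 35.6 CPM in WT muscle, again without overlap (-0.96 ± 0.26, 0.0171). In D2 they were 25.7, 21.8 and 18.8 CPM in CMD muscle, against 29.9, 35.8 and 21.6 CPM in WT muscle, which overlapped (-0.40 ± 0.26, 0.285). The CMD levels of the 4 strains lay close together, with means of 18.95 to 22.1 CPM. The fall in B6 was lost without library 1 (0.0553), 5 (0.0936) or 6 (0.0544), and that in 87 when its libraries were fitted alone (0.0594). Lowered calls in at least 3 strains, as for Acvr2a and Mstn, were made for 4.56% of all tested genes. Of the Acvr2a reads 97.09% were unique, and 6.84% of its 58-base windows also occur, on either strand, in transcripts of Orc4.

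Acvr2b, the second type II receptor for these ligands, was called as lowered in B6 alone, and the difference between strains was not past the threshold (adjusted p = 0.478). In B6 it had 1.36, 1.64 and 3.08 CPM in CMD muscle, against 4.43, 8.37 and 7.05 CPM in WT muscle (-1.71 ± 0.56, 0.0406). In D2 it had 5.56, 1.81 and 3.92 CPM in CMD muscle, against 8.43, 5.89 and 10.4 CPM in WT muscle (-1.13 ± 0.54, 0.141). The groups did not overlap in either strain. The B6 call was lost without library 2 (0.126), 3 (0.0895), 4 (0.128) or 5 (0.138), and without the 4 D2 libraries of contradicted sex labels (-1.67, 0.0554). In 67 and 87 the genotypes overlapped, with log2 fold changes of -0.43 and -0.29. Per length, Acvr2a exceeded Acvr2b in all 24 libraries, and the ratio of their TPM, a level scaled by gene length and library, was 2.31 to 12.3 in CMD muscle and 1.30 to 19.5 in WT muscle.

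Fst, which encodes the myostatin and activin inhibitor follistatin, rose in 67, D2 and B6, with the highest mean level in D2 CMD muscle. In D2 it had 18.3, 49.97 and 39.96 CPM in CMD muscle, against 6.34, 4.10 and 4.62 CPM in WT muscle. In 67 it had 24.3, 13.4 and 19.5 CPM in CMD muscle, against 7.76, 3.68 and 4.03 CPM in WT muscle. The lowest CMD library was above the highest WT library in both strains, and D2 library 22 stood apart from the other two D2 CMD libraries. The log2 fold change of Fst was 2.84 ± 0.40 in D2 (adjusted p = 0.00017, 7.18-fold) and 1.89 ± 0.39 in 67 (0.00247, 3.70-fold).

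In B6 the Fst values were 13.5, 8.78 and 15.2 CPM in CMD muscle, against 7.52, 4.07 and 3.03 CPM in WT muscle (1.36 ± 0.39, 0.0202). In 87 they were 8.21, 15.2 and 12.9 CPM in CMD muscle, against 6.84, 7.32 and 6.17 CPM in WT muscle (0.84 ± 0.38, 0.124). All CMD libraries were above all WT libraries here too, although the change in 87 did not pass. The CMD effect on Fst in D2 exceeded that in 87 by 2.01 ± 0.54 on the log2 scale (adjusted p = 0.0272), and by 1.46 without libraries 16 and 23 (0.132). It was also lost without library 13, 14, 16, 20, 21, 23 or 24, with adjusted p between 0.0519 and 0.0715. Without the 4 libraries of contradicted sex labels Fst still passed in D2 (3.61 ± 0.67, 0.00843), and the difference between D2 and 87 did not (2.77 ± 0.73, 0.0666). The B6 call was lost without library 2 (0.0833), 3 (0.0908) or 6 (0.0692). Raised calls in at least 3 strains were made for 4.55% of all tested genes.

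Fstl3, a second blocker of myostatin and activins, could be measured only in part. Of its 58-base windows 46.1% also occur, on either strand, in transcripts of Prss57, which itself had 0 to 6 total reads per library. Fstl3 had 21 to 130 total reads per library, and 29.97% of its reads were unique. In 87 it had 1.15, 0.590 and 0.554 CPM in CMD muscle, against 1.41, 1.75 and 1.10 CPM in WT muscle, which overlapped through library 16 (-0.89 ± 0.32, adjusted p = 0.0538). On unique reads the log2 fold change in 87 was -1.79 (0.0326). That value stood on few reads, 9, 1 and 5 in the CMD libraries and 11, 23 and 20 in the WT libraries. On total reads without libraries 16 and 23 the change of Fstl3 in 87 was -1.30 (0.0138). It also passed with DESeq2 (-0.87, 0.0474) and without library 22 (-0.89, 0.0453). In 67 all CMD libraries were above all WT libraries (0.59 ± 0.32, 0.2). In D2 and B6 the log2 fold changes of Fstl3 were -0.01 and 0.23, with overlapping groups.

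Fstl1 shares the follistatin-like name but is a distinct secreted glycoprotein, made largely by fibroblasts and other mesenchymal cells. In 67 it rose, with 98.2, 74.2 and 59.5 CPM in CMD muscle, against 39.6, 33.9 and 29.8 CPM in WT muscle (1.17 ± 0.33, adjusted p = 0.0183). In B6 it had 63.3, 90.9 and 66.2 CPM in CMD muscle, against 54.6, 29.2 and 35.0 CPM in WT muscle (0.89 ± 0.33, 0.0661). Neither pair of groups overlapped. In 87 it had 12.4, 27.9 and 44.0 CPM in CMD muscle, against 53.6, 37.3 and 38.6 CPM in WT muscle (-0.62 ± 0.33, 0.2), with library 16 the lowest, and in D2 the change was 0.20 ± 0.33. The call in 67 was lost without library 8 (0.0533), 9 (0.076) or 10 (0.0798). The change in B6 passed without libraries 16 and 23 (0.90, 0.0167) and without library 1 (0.0307), 16 (0.0151) or 18 (0.0309). The change in 87 was called as a fall without library 18 (-1.11, 0.0228) and with sex as labelled (-0.85, 0.0415).

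Fibroblast markers are given beside Fstl1. The summed level of 6 such genes ranged over 582.7 to 1022 CPM in 67 CMD, 64.2 to 519.8 CPM in 87 CMD, 756.9 to 1359 CPM in D2 CMD and 710.2 to 942.4 CPM in B6 CMD muscle. In WT muscle it ranged over 297.6 to 518.3 CPM in 67, 438.4 to 643.5 CPM in 87, 320.9 to 579.2 CPM in D2 and 286.8 to 629.5 CPM in B6. None of the 6 genes was at 0, and 1 passed as raised in 67 (Pdgfra), 1 as lowered in 87 (Pdgfra) and 1 as raised in D2 (Col1a1), beside none in B6, where 2 had an unadjusted p under 0.05 and DESeq2 called 0. Without libraries 16 and 23 the call of Pdgfra in 87 was lost (-0.485, 0.129). Col1a1 then also passed as raised in 67 (1.23, 0.0145) and B6 (1.24, 0.016), Col3a1 in 67 (1.31, 0.0112), D2 (1.48, 0.0155) and B6 (1.28, 0.0153), and Cd34 in 67 (0.685, 0.00984) and B6 (0.52, 0.0437). Their part in the Fstl1 result was not tested.

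**Figure D2:**
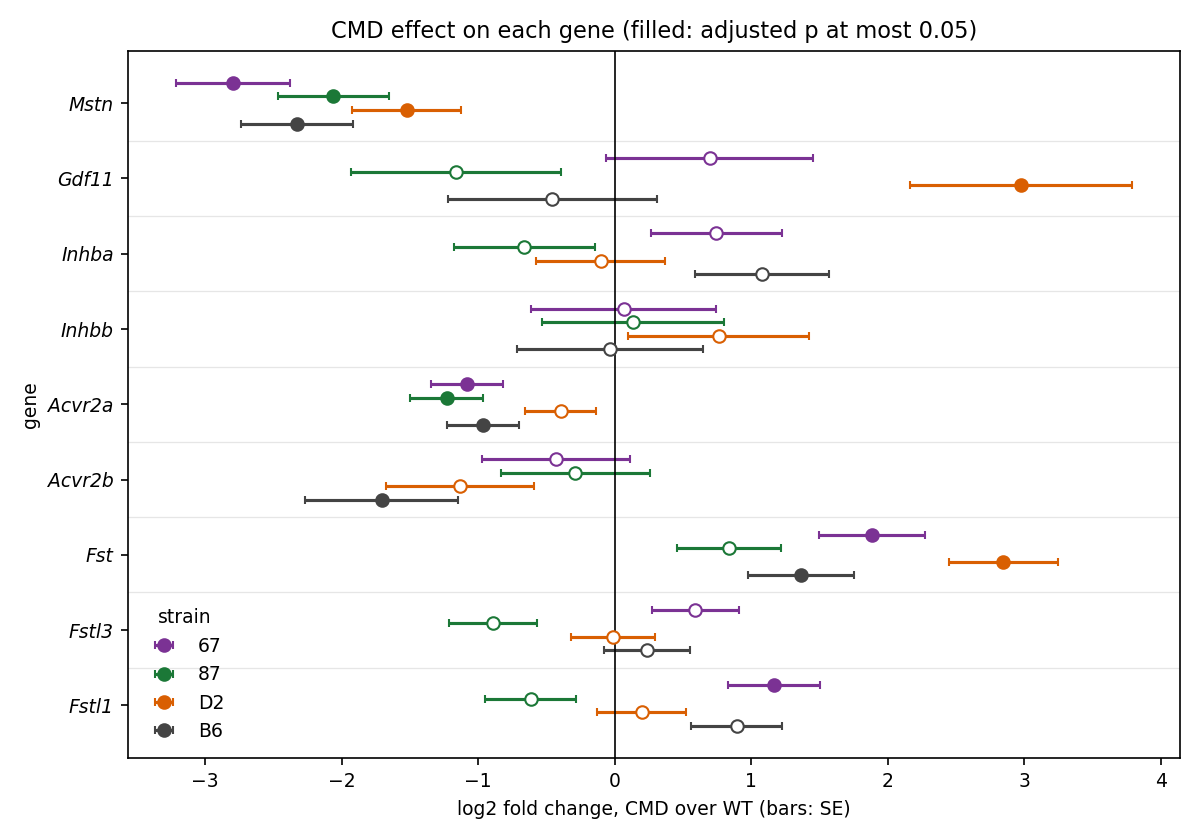
Log2 fold change of CMD over WT with its standard error for each of the 9 genes and 4 strains; filled points passed the adjusted threshold of 0.05. Mstn lies left of 0 in all strains and Fst right of 0, while Gdf11, Fstl1 and Fstl3 lie on both sides.

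**Figure D3:**
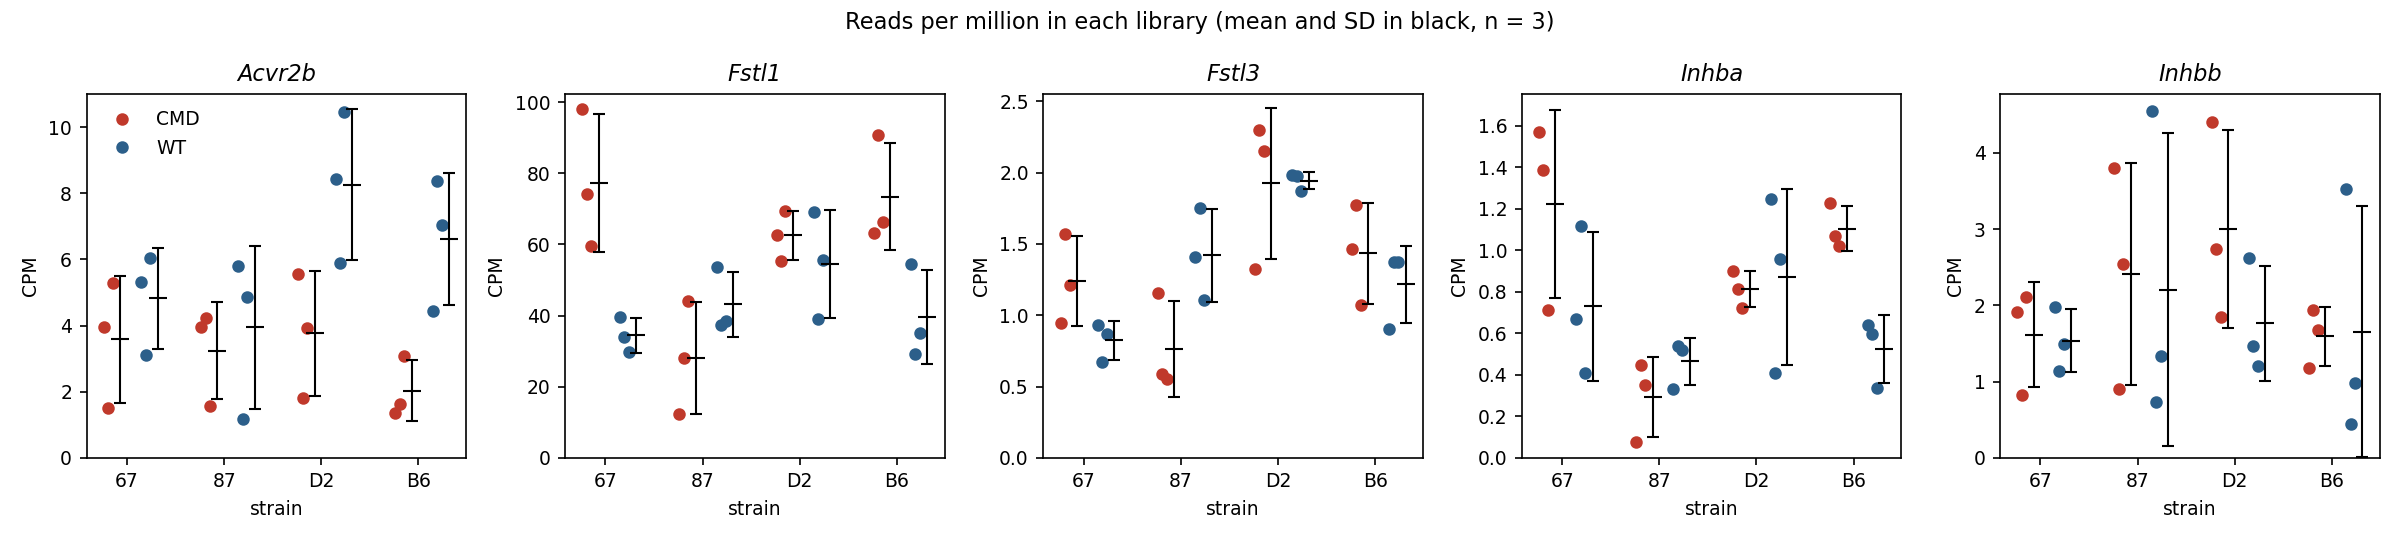
CPM of Acvr2b, Fstl1, Fstl3, Inhba and Inhbb in each library, drawn with CMD left of WT for each strain and the mean and SD of 3 libraries in black. Fstl3, Inhba and Inhbb stay below 5 CPM in every library.

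In all, 4 of the 9 members passed in 67 (2 raised, 2 lowered), 2 in 87 (both lowered), 3 in D2 (2 raised, 1 lowered) and 4 in B6 (1 raised, 3 lowered). The same threshold was passed by 21.7% of all tested genes in 67, 20.8% in 87, 20.2% in D2 and 18.4% in B6. No member passed as raised in 87 by edgeR or DESeq2, and 1 had an unadjusted p under 0.05. All 3 CMD libraries were above all 3 WT libraries for 3 members in 67, 1 in 87, 2 in D2 and 3 in B6, and 22.2%, 15.5%, 21.4% and 19.7% of all tested genes were so placed in these strains. They were below them for 2, 2, 2 and 3 members, against 21.8%, 15.1%, 21.5% and 21.6% of all tested genes. The median log2 fold change of the 9 members was 0.59 in 67, -0.66 in 87, -0.01 in D2 and -0.04 in B6, beside 0.00, 0.01, 0.03 and 0.01 for all genes.

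Averaged with equal weight over the 4 strains, 5 of the 9 members passed, 2 raised and 3 lowered, against 48.8% of all tested genes (25.4% raised, 23.4% lowered). The mean log2 change was -2.18 ± 0.20 for Mstn (adjusted p = 1.36e-07), -0.92 ± 0.13 for Acvr2a (1.55e-05) and -0.89 ± 0.27 for Acvr2b (0.0111). For Fst it was 1.73 ± 0.19 (1.05e-06). For Fstl1 it was 0.41 ± 0.17 (0.0463), and this call was lost with a sex term taken from Y-linked reads (0.102) without any filter on low counts (0.0591) and without the 4 libraries of contradicted sex labels (0.0701). It was lost as well when any 1 of libraries 2, 3, 5, 6, 8, 9, 10, 11, 14, 15, 17, 18, 20, 21, 22 and 24 was left out, with adjusted p of up to 0.121. None of the other 4 members passed.

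No member passed the F test of a difference between strains in the CMD effect, which 4.67% of all tested genes passed. By unadjusted p under 0.05 there were 4 (Gdf11, Fst, Fstl3 and Fstl1), and DESeq2 called 3 (Gdf11, Fst and Fstl1). Leaving out 1 library brought Gdf11 (0.049) and Fstl3 (0.0489) past the threshold without library 16, Fst (0.0319) without 22, and Fstl1 without 1 (0.0414) or 18 (0.0123). Of the 6 pairs of strains, D2 against 87 gave the 2 calls described above, Gdf11 and Fst, where 7.9% of all genes passed. No member passed in the other 5 pairs in the main fit. Their shares of all genes called were 0.00676% for 67 against B6 and for 87 against B6, 3.62% for D2 against B6, 0.142% for 87 against 67 and 1.28% for D2 against 67. Unadjusted p under 0.05 were found in these pairs for 0, 3, 2, 2 and 2 members, and DESeq2 called 0, 0, 1 (Gdf11), 1 (Fstl1) and 0. For D2 against B6, Gdf11 passed without library 16 (0.0252) or 22 (0.0484) and Fst without 22 (0.0427). For 87 against 67 and against B6, Fstl1 passed without library 18 (0.0218 and 0.0429). With sex from Y-linked reads Fstl1 passed for 87 against 67 (-2.13, 0.0293), and with sex as labelled too (-2.19, 0.0141). Sex as labelled also brought Gdf11 (4.50, 0.0272) and Fst (2.13, 0.0102) past the threshold for D2 against B6, and Fstl1 for D2 against 87 (1.42, 0.0356). In WT muscle no member passed the test of a level difference among the 4 strains (8.66% of all genes did), with Fstl3 the nearest (adjusted p = 0.0757, and 0.0344 without library 16) and the 1 member called by DESeq2 or at an unadjusted p under 0.05. Its D2 WT libraries, at 1.87 to 1.98 CPM, were above all other WT libraries, at 0.669 to 1.76 CPM.

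Levels of different genes were compared per length, as TPM. In CMD muscle the medians over 12 libraries were 34.9 TPM for Fstl1, 12.03 for Mstn, 8.59 for Fst, 8.47 for Gdf11 and 8.13 for Acvr2a, then 1.77 for Acvr2b, 1.32 for Fstl3, 1.01 for Inhbb and 0.306 for Inhba. In WT muscle they were 60.5 TPM for Mstn, 20.1 for Fstl1, 13.5 for Acvr2a, 7.99 for Gdf11, 3.25 for Acvr2b, 3.19 for Fst, 1.49 for Fstl3, 0.632 for Inhbb and 0.176 for Inhba. Fstl1 stood above Mstn in 10 of 12 CMD libraries and in 0 of 12 WT libraries. Neighbours in the CMD order were not well separated: Mstn exceeded Fst in 7 of 12 CMD libraries and Fst exceeded Gdf11 in 6. In WT muscle Mstn exceeded every other member in all 12 libraries, Acvr2a exceeded Gdf11 in 11 of 12, and Acvr2b exceeded Fst in 6.

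The ratio of Fst to Mstn TPM joined both changes in 1 value per library. It was 1.68, 0.75 and 1.1 in 67 CMD, 0.191, 0.611 and 1.16 in 87 CMD, 0.492, 2.89 and 2.58 in D2 CMD, and 0.468, 0.629 and 0.963 in B6 CMD muscle. In WT muscle it ranged over 0.0278 to 0.0725 in 67, 0.0468 to 0.0846 in 87, 0.0457 to 0.104 in D2 and 0.0317 to 0.0626 in B6. Every CMD library was thus above every WT library, library 16 came nearest to them, and Fst exceeded Mstn in 5 of the 12 CMD libraries. The values are transcript levels and give no protein amounts.

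**Figure D4:**
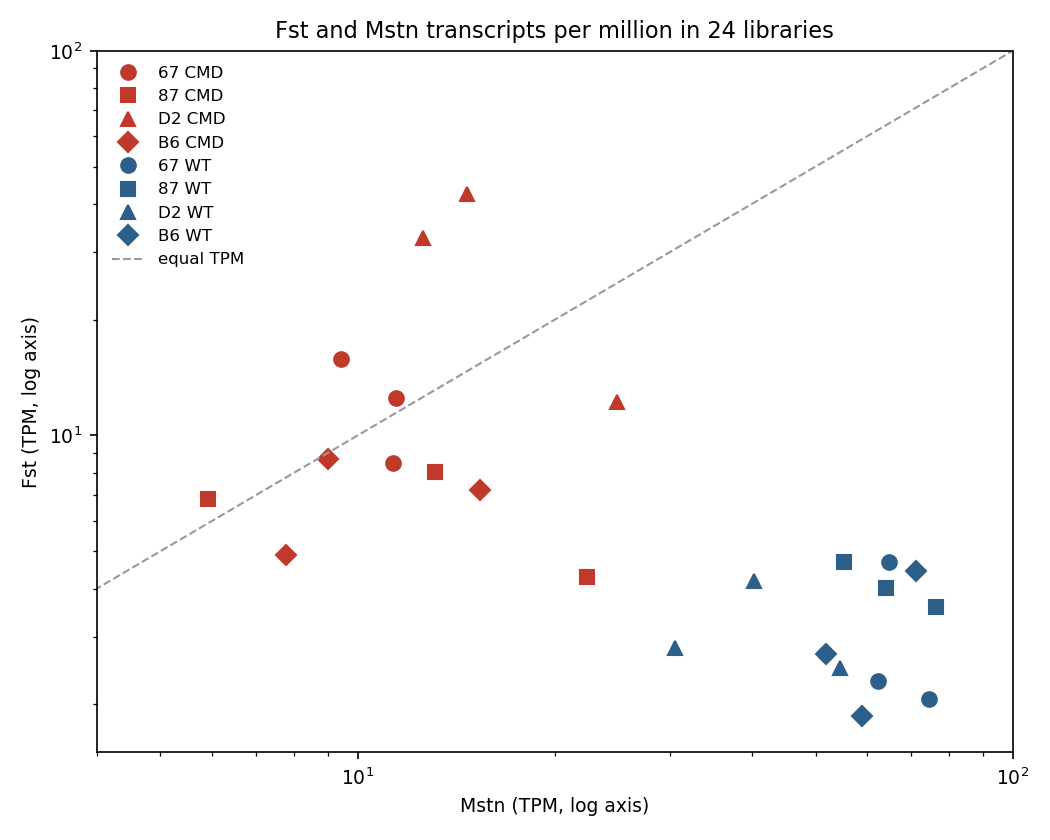
Fst against Mstn in TPM on log axes, 1 point per library, with CMD in red, WT in blue, shapes for strains and a dashed line of equal TPM. The 12 WT libraries lie at the lower right and the 12 CMD libraries to their left, 5 of them above the line.

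Muscle fibre markers are given beside Mstn, which in mouse muscle is known to be expressed most in fast glycolytic fibres. Of 5 fast IIB and IIX fibre genes, Myh4, Actn3, Mybpc2 and Pvalb fell in 67, 87 and B6, and none passed in D2, where 1 had an unadjusted p under 0.05 and DESeq2 called 0. The falls of Myh4 (-0.825, 0.0916) and Pvalb (-0.83, 0.162) in 87 did not pass without libraries 16 and 23. Myh1, the IIX myosin, rose in 67 and 87. In B6 it did not pass, at 12210, 9628 and 16176 CPM in CMD muscle against 133.9, 3606 and 7874 CPM in WT muscle. These B6 groups did not overlap, and DESeq2 called 1 of the fast fibre genes as raised in B6. Of 5 slow fibre genes, 5 rose in 67, 3 in 87 and 1 in B6 (Tnni1), and none passed in D2, at an unadjusted p under 0.05 or by DESeq2. Their summed level in WT muscle was 0.613 to 6.19 CPM in 67, 0.334 to 1.46 CPM in 87 and 0.403 to 59.3 CPM in B6. In D2 WT muscle it was 33.7 to 1654 CPM. In CMD muscle it was 97.6 to 447.9 CPM in 67, 9.07 to 45.1 CPM in 87, 71.9 to 1045 CPM in D2 and 26.5 to 28.3 CPM in B6. The summed level of the 5 fast fibre genes ranged over 42847 to 52134 CPM in 67 CMD, 44598 to 79304 CPM in 87 CMD, 40448 to 74096 CPM in D2 CMD and 39713 to 58936 CPM in B6 CMD muscle. In WT muscle it ranged over 112181 to 120428 CPM in 67, 87641 to 98658 CPM in 87, 78173 to 88351 CPM in D2 and 99126 to 125274 CPM in B6, and no gene was at 0. Myh4, the IIB myosin, changed by -2.08 in 67, -0.998 in 87, -0.74 in D2 (adjusted p = 0.135) and -1.70 in B6 on the log2 scale. The part of the fibre markers in the Mstn result was not tested.

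Markers of new fibres are given beside Fst. All 3 regenerating fibre genes (Myh3 and Myh8, the embryonic and perinatal myosins, and Mymk, the fusion protein myomaker) rose in all 4 strains, and so did Myog among 4 satellite cell and myoblast genes, while Pax7 fell in 87. The rise of Myh8 in D2 (1.16, 0.0665) and the fall of Pax7 in 87 (-1.20, 0.0618) did not pass without libraries 16 and 23, where Myod1 passed in 67 (1.04, 0.0134). The summed level of the regenerating fibre genes ranged over 83.4 to 179.5 CPM in 67 CMD, 14.2 to 59.4 CPM in 87 CMD, 47.9 to 380.7 CPM in D2 CMD and 44.9 to 69.6 CPM in B6 CMD muscle. In WT muscle it ranged over 4.21 to 11.3 CPM in 67, 5.12 to 7.62 CPM in 87, 22.6 to 31.2 CPM in D2 and 5.10 to 11 CPM in B6. Their part in the Fst result was not tested.

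The 5 genes nearest to Mstn were ranked over the 8 group means of centred log2 CPM. These were Kazald1 (mean absolute difference 0.19), Wnt4 (0.25), Nhs (0.26), Plcd4 (0.28) and Tafa4 (0.28), where the median over all tested genes was 1.15. Kazald1, a secreted protein with a Kazal-type domain, changed by -2.48 in 67, -2.77 in 87, -1.55 in D2 and -1.99 in B6 on the log2 scale, past the threshold in each. Wnt4, a secreted Wnt ligand, changed by -1.93, -1.84, -0.99 and -1.92 in the same order and did not pass in D2 (adjusted p = 0.062). Nhs did not pass in D2 (0.0822) and Tafa4 did not pass in 87 (0.114). Plcd4 passed in 67 (0.0111) but not in 87 (0.087), D2 (0.135) or B6 (0.107). The choice by likeness fixes the direction of all these values.

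Among 9 tested other receptors and coreceptors of the TGF-beta family, which include the type II receptors Tgfbr2 and Bmpr2, 1 was raised and 1 lowered in 67, 1 and 2 in 87, 2 and 1 in D2, and 0 and 3 in B6. Over all tested genes 11.4% were raised and 10.3% lowered in 67, 11.5% and 9.38% in 87, 11.2% and 9.03% in D2, and 8.07% and 10.4% in B6. The same shares apply to the other gene lists. In B6, 0 receptors were raised at an unadjusted p under 0.05 or by DESeq2. The median log2 fold change of the receptors was -0.26 in 67, -0.03 in 87, 0.09 in D2 and -0.46 in B6, beside the all-gene medians given above. Acvr1b, the type I receptor that pairs with type II activin receptors, fell in 67 (-1.20 ± 0.23), 87 (-0.98 ± 0.23) and B6 (-1.67 ± 0.24). Its mean level was 46.3 CPM in D2 CMD and 42.7 CPM in D2 WT muscle, and 26.9 to 43.3 CPM in the other CMD groups against 81.8 to 85.2 CPM in the other WT groups. Tgfbr2, the type II receptor of TGF-beta, rose in 67 (0.85), 87 (0.61) and D2 (0.73). Bmpr1a fell in 87 (-0.79) and B6 (-0.87), and Acvr1 in D2 (-0.53). Without libraries 16 and 23 the calls of Tgfbr2 (0.53, 0.0551) and Bmpr1a (-0.68, 0.0843) in 87 and of Acvr1 in D2 (-0.39, 0.118) were lost, and Acvr1 (-0.45, 0.0397) and Tgfbr1 (-0.50, 0.0451) fell in B6.

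Of 12 signal transducers, 3 were raised and 0 lowered in 67, 1 and 3 in 87, 2 and 1 in D2, and 2 and 3 in B6. In 67, 2 had an unadjusted p under 0.05 in the lowered direction, and DESeq2 called 0. The median of the list was 0.18 in 67, 0.05 in 87, -0.16 in D2 and -0.17 in B6. Smad9, which carries BMP signals, was raised in all 4 strains, as were 1.43% of all tested genes. Its mean level was 1.87 CPM in 67 CMD against 0.227 CPM in 67 WT muscle, and 1.45 CPM in D2 CMD against 0.257 CPM in D2 WT muscle. Smad1, also a BMP transducer, rose in 67 (0.57), D2 (0.48) and B6 (0.44). Smurf2, a ubiquitin ligase that acts on SMADs and receptors, fell in 87 (-0.67), D2 (-0.75) and B6 (-0.65), and the corepressor Ski fell in 87 (-0.74) and B6 (-0.45). Smad2 did not pass in any strain, with log2 fold changes of -0.01 in 67, 0.15 in 87, 0.20 in D2 and -0.17 in B6, and Smad3 fell in 87 (-1.20). The call of Smad3 was lost without libraries 16 and 23 (-0.87, 0.0779), where Smad4 passed as lowered in 67 (-0.54, 0.0307).

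Among 9 other antagonists and binding proteins, 1 rose and 1 fell in 67, 1 rose and 2 fell in 87, 1 rose in D2 and 1 fell in B6, with medians of 0.30, -0.65, 0.33 and -0.18. In D2, 1 had an unadjusted p under 0.05 in the lowered direction and DESeq2 called 1, and in B6 both gave 0 in the raised direction. Wfikkn2, a secreted binder of myostatin and Gdf11, fell in 67 (-0.82 ± 0.20), 87 (-0.96 ± 0.20) and B6 (-0.82 ± 0.20), and was at -0.54 ± 0.20 in D2 (adjusted p = 0.0588). Chrd, the BMP antagonist chordin, rose in 67 (0.90), 87 (1.20) and D2 (1.44), and Ltbp3, which binds latent TGF-beta, fell in 87 (-0.66) and did not pass there without libraries 16 and 23 (-0.62, 0.0553). Of 6 proprotein processing enzymes none passed in 67 or D2, where 1 each had an unadjusted p under 0.05 and DESeq2 called 1 and 0. The medians of the enzymes were 0.15 in 67, -0.50 in 87, 0.29 in D2 and 0.03 in B6. Pcsk6 (-1.39) and Tll1 (-1.22) fell in 87, and Furin, which cleaves the myostatin precursor, fell in B6 (-0.63). Neither Pcsk6 (-0.98, 0.0565) nor Tll1 (-0.87, 0.158) passed in 87 without libraries 16 and 23, while in that fit Furin passed there (-0.46, 0.0203) and Pcsk5 rose in 67 (1.19, 0.0482) and B6 (1.20, 0.0459).

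Of 9 other ligands of the TGF-beta family, 4 rose in 67, 1 in 87, 3 in D2 and 1 in B6, and 1 fell in D2. Lowered at an unadjusted p under 0.05 were 0 in 67, 2 in 87 and 1 in B6, and DESeq2 called 0, 1 and 0. The median of the ligands was 0.80 in 67, 0.31 in 87, 0.63 in D2 and 0.17 in B6. Gdf5, a BMP-type ligand, was raised in all 4 strains. Its mean level was 1.995 CPM in 67 CMD, 3.45 CPM in 87 CMD, 8.16 CPM in D2 CMD and 0.912 CPM in B6 CMD muscle, against 0.00889, 0.0635, 0.325 and 0.0448 CPM in WT muscle of these strains. The WT levels stood on few reads, so no fold is given. Gdf6 rose in 67 (3.75) and D2 (4.04), and Gdf15, a stress-induced cytokine of the family, rose in D2 (2.63). Bmp6 fell in D2 (-0.83). Neither Gdf15 (1.90, 0.0554) nor Bmp6 (-0.84, 0.0506) passed in D2 without libraries 16 and 23, and Gdf15 then passed in 67 (1.99, 0.0495). Of all lists, 7 genes were too low to be tested: Tdgf1, Grem1, Fstl4, Tll2, Inhbc, Inhbe and Nodal.

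Of 11 known response genes of SMAD2/3 or BMP signalling and of muscle atrophy, 9 rose in 67, 11 in 87, 5 in D2 and 5 in B6. None passed as lowered. Over all tested genes 11.4% were raised in 67, 11.5% in 87, 11.2% in D2 and 8.07% in B6. The list holds targets of several pathways. By unadjusted p under 0.05 there were 0 lowered in 67, 87 and D2 and 1 in B6, and DESeq2 called 0 as lowered in each. The median log2 fold change of the list was 1.75 in 67, 2.21 in 87, 0.53 in D2 and 1.28 in B6. The count in 87 was 7 without library 16, 7 without library 15, 8 without libraries 16 and 23 and 3 with its libraries fitted alone. In B6, 1 gene was lowered without libraries 16 and 23. That gene was Fbxo32 (-1.25 ± 0.34, adjusted p = 0.0115), named after its values were seen. In the same fit Id1 rose in 67 (1.27, 0.000685), 87 (0.87, 0.0254) and B6 (1.27, 0.00109) but was at -0.72 in D2 (0.0582). Ccn2 (-0.57, 0.348) and Fbxo32 (-0.84, 0.128) were also below 0 in D2. Id2 (2.13, 4.58e-05) and Gadd45a (2.415, 0.00481) passed as raised there.

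Id2 and Id3, inhibitors of bHLH factors that BMP signals induce, and Junb, an AP-1 subunit, rose in all 4 strains. Id2 averaged 10.9 CPM in 67 CMD, 11.7 CPM in 87 CMD, 11.5 CPM in D2 CMD and 8.09 CPM in B6 CMD muscle, against 2.15, 2.54, 2.10 and 2.50 CPM in WT muscle of these strains. Its log2 fold change was 2.34 ± 0.28 in 67, 2.21 ± 0.28 in 87, 2.45 ± 0.28 in D2 and 1.70 ± 0.28 in B6. Junb changed by 2.62, 2.90, 2.04 and 2.00 and Id3 by 1.22, 0.76, 0.80 and 1.42 on the log2 scale in the same order, and without libraries 16 and 23 Id3 did not pass in D2 (0.46, 0.058). Gadd45a, a stress gene, rose in 67 (1.75), 87 (2.57) and D2 (2.93) and was at 1.28 in B6 (adjusted p = 0.0744). Trim63 was called in 87 (2.93), where libraries 17 and 18 had 215.3 and 289.8 CPM of it beside the 3815 CPM of library 16, against 173.7 to 201.7 CPM in 87 WT muscle. Without libraries 16 and 23 its change in 87 was 0.43 (adjusted p = 0.404).

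**Figure D5:**
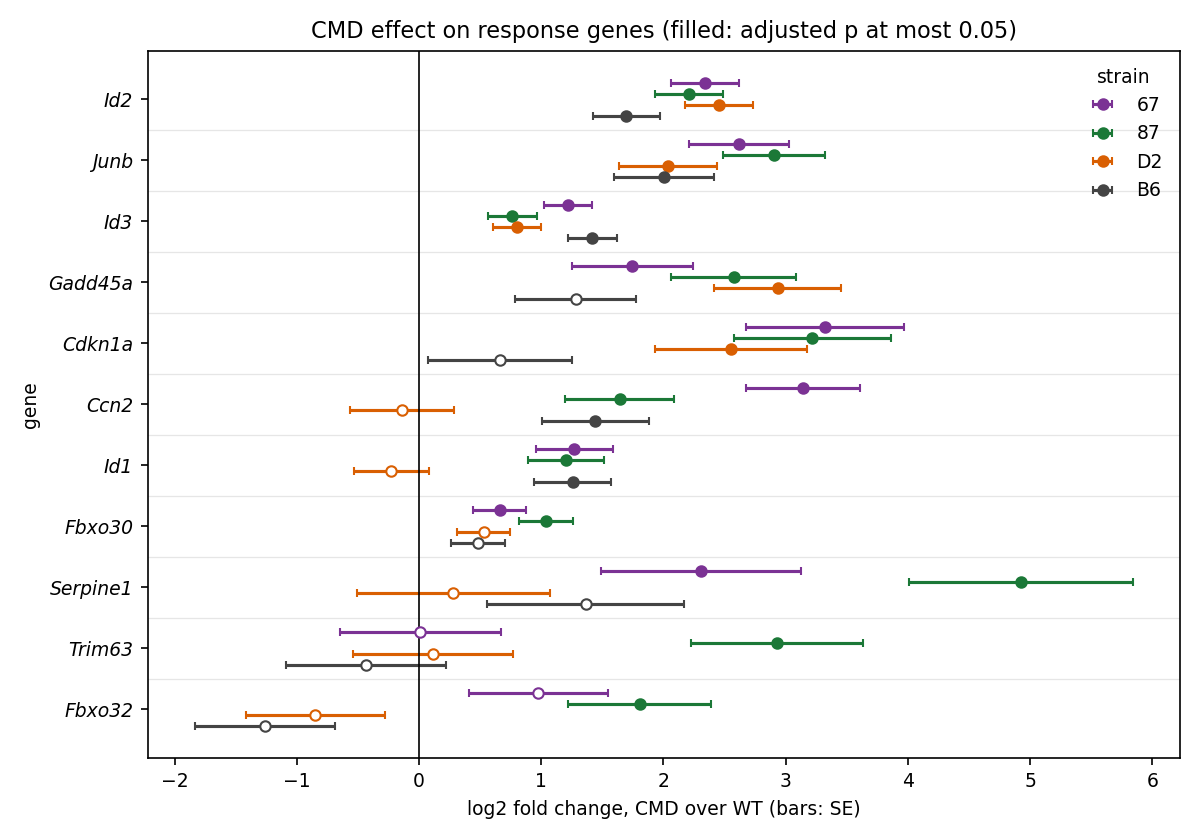
Log2 fold change of CMD over WT with its standard error for 11 response genes in 4 strains; filled points passed the adjusted threshold of 0.05. Id2, Id3 and Junb are filled in all strains, and the 87 point of Trim63 at 2.93 includes library 16.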

How the data were processed

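The deposited file of each library lists raw counts by Ensembl gene, both of total and of unique exon reads, beside TPM values that the authors had scaled by exon length and library. TRIzol RNA went into stranded mRNA libraries that were read as pairs of 58 bases, per the labels. The submitters' processing notes name build GRCm39; which programs aligned and counted the reads, and whether strand was used, is not given in the sources used here.

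Counts of total exon reads were fitted in edgeR 4.0.16 (R 4.3.3, limma 3.58.1) with glmQLFit, TMM factors, 8 group terms and all 24 libraries, after filterByExpr (minimum count 10, minimum total 15) left 14789 of 25369 genes, the 9 members among them. CPM are TMM-scaled. TPM entered no test. CMD was compared with WT by glmQLFTest within each strain, over the mean of the strains, and between strains, with Benjamini-Hochberg adjustment over all tested genes. The code was tested on simulated counts. Total exon reads were 32292613 to 51715975 per library.

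Alternatives were other size factors, no filter, 2 sex terms, DESeq2 1.42.0, unique reads, the fit of 1 strain alone, and leaving out libraries, to which the fit without 4 D2 libraries was added after the data were seen. Members, gene lists and alternatives were chosen with earlier results of these data known. Genes were named by rule: all members, Lama2, the 5 nearest to Mstn, and up to 4 genes per pathway list. Those of a list had the most strains past the threshold in 1 direction. Marker genes, Smad2, Smad3, Trim63, Fbxo32, Id1 and Ccn2 were added beside the results they bear on. Sequences are from RefSeq and GENCODE M21 on GRCm38, not the build of the counts, so no gene coordinates of the counts are given. Results of 5 lists of marker genes are not reported here.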

Additional observations from a re-analysis of the deposited data

Results flagged for a closer look

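The CMD effect on Gdf11 differed between D2 and 87 by 4.14 on the log2 scale (edgeR adjusted p = 0.0279). It was 2.97 in D2 and -1.16 in 87, and all 3 D2 CMD libraries were above the D2 WT libraries, while the 87 groups overlapped. Without libraries 16 and 23 the difference was 2.94 (0.0671), and it also missed the threshold without library 13, 20, 21, 23 or 24 alone and without the 4 D2 libraries of contradicted sex labels (4.71, 0.17).

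The CMD effect on Fst differed between the same strains by 2.01 (adjusted p = 0.0272). It was 2.84 in D2 and 0.84 in 87, with all 3 CMD libraries above all 3 WT libraries in both. Without libraries 16 and 23 the difference was 1.46 (0.132), and it also missed the threshold without library 13, 14, 16, 20, 21, 23 or 24 alone and without those 4 D2 libraries (2.77, 0.0666).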

How the results depend on the processing

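No paired analysis was made because the labels do not say which animals were littermates. No result changed direction past a threshold. Under the alternatives other than leaving out single libraries or 4 D2 libraries, the number of members called stayed at 4 in 67 and 3 in D2, and was 4 or 5 in B6 and over the mean of the strains. In 87 it was 0 of 9, and 355 of all genes, with that strain fitted alone. Members that passed the test of a difference among strains were 3 with sex as labelled, 3 with DESeq2, 1 with sex from Y-linked reads and 1 without libraries 16 and 23, and all genes were 1740 with DESeq2 and 1555 with sex as labelled. Among WT strains 1 member passed with sex as labelled, with DESeq2 and without libraries 16 and 23, in each case Fstl3, and all genes were 2184 with DESeq2 and 2014 without libraries 16 and 23. Without the 4 D2 libraries of contradicted sex labels, an alternative chosen after seeing the data that leaves 1 CMD and 1 WT library in D2, members called were 1 in D2 (Fst), 3 in B6, 4 over the mean and 0 in the test among strains, and all genes called were 744 in D2, 35 among strains and 98 among WT strains. Fewer samples entered that fit. The cause of the changes under this and the other alternatives was not tested.

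With each library left out in turn, members called were 3 to 4 in 67, 2 to 3 in 87, 1 to 3 in D2, 2 to 5 in B6, 4 to 5 over the mean, 0 to 2 in the test among strains and 0 to 1 among WT strains. All genes called were 1921 to 4245 in 67, 1832 to 3741 in 87, 1511 to 4268 in D2, 1139 to 3798 in B6, 356 to 1168 among strains and 562 to 1963 among WT strains. Depth limits Inhba, at 3 to 67 reads per library, and Fstl3, at 21 to 130 total reads per library. Of the Fstl3 reads 29.97% were unique.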
